A study of Mus musculus with 12 samples.

Results

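Genes of the Notch signalling pathway were followed in the mouse cochlea: the receptors Notch1, Notch2 and Notch3, the ligands Jag1 and Dll1, the glycosyltransferase Lfng and the target genes Hes1, Hes5, Hey1 and Hey2. They were chosen by gene name from the deposited expression table, so the 10 members stand among 37432 genes. RNA-seq had been performed on the apical, middle and basal pieces of the cochlea, cut into equal sections, of wild-type and Gjb2 35delG/35delG (35delG homozygous) mice at P14 (a postnatal day), with 2 repeats per genotype and turn and therefore 12 libraries in 6 groups. Gjb2 encodes connexin 26, a gap junction protein of the supporting cells, and the comparison asked how gene expression along the cochlea differs when it is mutated. Of these, 9 of 10 reached at least 1 FPKM, fragments scaled for transcript length and for sequencing depth, in 2 or more libraries and were tested. Hes5 did not reach it.

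The homozygous mice were males made by tetraploid complementation, in which edited embryonic stem cells form the whole mouse. Pups came by cesarean delivery, ICR foster mothers raised them, and they were on a background that was almost C57BL/6J. The wild-type mice were purchased males of the same age. Genotype and origin of the mice therefore cannot be told apart. How many mice or stem cell lines stand behind a library is not given in the sources used here, and the p-values measure the spread between these libraries only.

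Notch receptors are single-pass membrane proteins that are cut on binding a ligand of the Jagged or Delta-like family on the neighbouring cell. The released intracellular part joins the DNA-binding protein RBPJ and switches on target genes, most of them of the Hes and Hey families of transcriptional repressors. In the developing organ of Corti, this exchange between neighbours sets the mosaic of hair cells and supporting cells: ligands on nascent hair cells hold the cells around them in the supporting cell fate, and Jag1 marks the sensory territory earlier. The same pathway acts in vessels and in glia, all of which were in the pieces that were sequenced.

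The RBPJ core sequence is TGGGAA on either strand (TTCCCA when read on the other one). It was looked for in the RefSeq promoter windows of the members (build GRCm38.p6). Each window runs from 250 bases before to 50 bases after its own start, called the promoter start. For Hey2, Lfng and Jag1 the promoter start differs from the 5′ end of the gene span given below. Part of the bases before it lies within that span. Windows were found for 8 of the 10 members, and 3 of these 8 held the core, Lfng, Hes5 and Hey2, with 2 cores each. Of all 32851 promoter windows of this length, 8397 (25.6%) held it. The windows of Jag1, Lfng and Hey2 are printed because the genotype difference of these 3 members differed between the middle and basal turns (below), with the core in capitals and each sequence running 5′ to 3′ on the strand of its gene. A match describes letters only. The window of Hey2 lies on the minus strand at chr10:30842734-30843033, that of Lfng on the plus strand at chr5:140607091-140607390 and that of Jag1 on the minus strand at chr2:137116471-137116770.
Jag1: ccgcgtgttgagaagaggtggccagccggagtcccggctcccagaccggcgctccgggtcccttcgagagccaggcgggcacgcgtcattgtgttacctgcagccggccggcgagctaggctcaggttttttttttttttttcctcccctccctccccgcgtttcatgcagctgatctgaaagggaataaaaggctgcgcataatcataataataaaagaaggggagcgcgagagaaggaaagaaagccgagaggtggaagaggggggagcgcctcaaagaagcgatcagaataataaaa
Lfng: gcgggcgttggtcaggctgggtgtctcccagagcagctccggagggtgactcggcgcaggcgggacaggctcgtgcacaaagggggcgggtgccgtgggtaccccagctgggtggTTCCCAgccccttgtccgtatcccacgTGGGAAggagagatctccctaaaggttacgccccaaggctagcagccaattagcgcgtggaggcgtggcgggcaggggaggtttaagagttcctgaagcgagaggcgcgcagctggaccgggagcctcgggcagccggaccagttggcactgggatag
Hey2: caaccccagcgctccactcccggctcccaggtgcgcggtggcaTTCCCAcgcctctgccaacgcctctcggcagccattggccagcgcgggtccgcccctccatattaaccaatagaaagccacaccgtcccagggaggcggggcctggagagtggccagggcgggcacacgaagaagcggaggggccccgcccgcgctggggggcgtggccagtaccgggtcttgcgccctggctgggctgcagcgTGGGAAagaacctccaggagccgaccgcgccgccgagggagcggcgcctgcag
In Hey2 the cores began 207 bases before the promoter start, on the other strand, and 3 bases before it, on the strand of the gene. In Lfng they began at 135 bases before the promoter start on the other strand and at 108 bases before it on the strand of the gene. No core was found in the windows of Jag1, Notch1, Notch2, Notch3 or Dll1, and windows for Hes1 and Hey1 were not analysed here.

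The libraries sorted by labelled group only in part. Over all genes tested, both libraries of the wild-type apical, wild-type middle and homozygous basal turns were nearest to their own repeat. Homozygous apical and middle libraries were nearest to libraries of each other's turn. The wild-type basal repeats lay farther from each other (Euclidean distance 105) than, on average, from the homozygous middle libraries (84.9). Both libraries of the wild-type basal turn were nearest, over all genes tested, to a library of the homozygous middle turn, and the homozygous basal turn was nearer to the wild-type middle turn (mean Euclidean distance of log2 values 89.0) than to the wild-type basal turn (129). The summed level of 12 hair cell markers was 11.0 to 12.9 scaled FPKM in the homozygous basal turn. It was 128 to 134 in the wild-type basal turn and 26.8 to 108 in the wild-type middle turn. In the homozygous basal turn Pou4f3, Otof, Slc26a5, Gfi1 and Myo15 were at or under 0.5 in both libraries, as in no other group (Atoh1 was so in all 6 groups). The summed level of 10 spiral ganglion neuron markers ran from 12.6 in wild-type basal replicate 1 to 2978 in homozygous basal replicate 2. Whether middle and basal labels were exchanged within a genotype was not tested. The samples were kept as labelled, and every middle, basal and basal minus middle value given here, with its sign, depends on those labels. In bulk pieces such as these, fewer cells of a type in the piece and less RNA per cell cannot be told apart. The paper counted hair cells and supporting cells by immunofluorescence at P14 and reported both as intact in homozygous mice. How much sensory epithelium each sequenced piece held was not tested. Gjb2 itself ranged from 140 to 434 scaled FPKM in the wild-type and from 58.6 to 451 in the homozygous libraries. Homozygous values were higher in the apical turn (332 and 376 against 248 and 254) and overlapped in the middle turn (256 and 451 against 140 and 268). They were lower in the basal turn (126 and 58.6 against 434 and 256). By qPCR, the paper reported reduced Gjb2 in homozygous cochlea at P14. The level does not show the allele, and no label was checked by it.

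All values below are FPKM divided by a scale factor per library, called scaled FPKM, with the 2 repeats in the order of their number. Of the 10 members, 7 were present at similar mean levels over the 12 libraries, from Lfng at 12.1 over Notch2 at 12.04, Notch1 at 10.8, Hey1 at 10.3, Jag1 at 9.15 and Hes1 at 8.69 to Hey2 at 7.97. In this order each gene exceeded the next in only 6 or 7 of 12 libraries, up to the pair of Hes1 and Hey2 with 7 of 12, so that neighbours did not differ beyond their spread. Below a step, Notch3 followed at 2.53, Dll1 at 0.783 and Hes5 at 0.206. Hey2 was above Notch3 and Notch3 above Dll1 in 12 of 12 libraries. Jag1 varied most from library to library, 11.8-fold from lowest to highest, whereas Notch2 (1.76-fold) and Hes1 (2.06-fold) varied least among the 9 tested members.

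**Figure D1:**
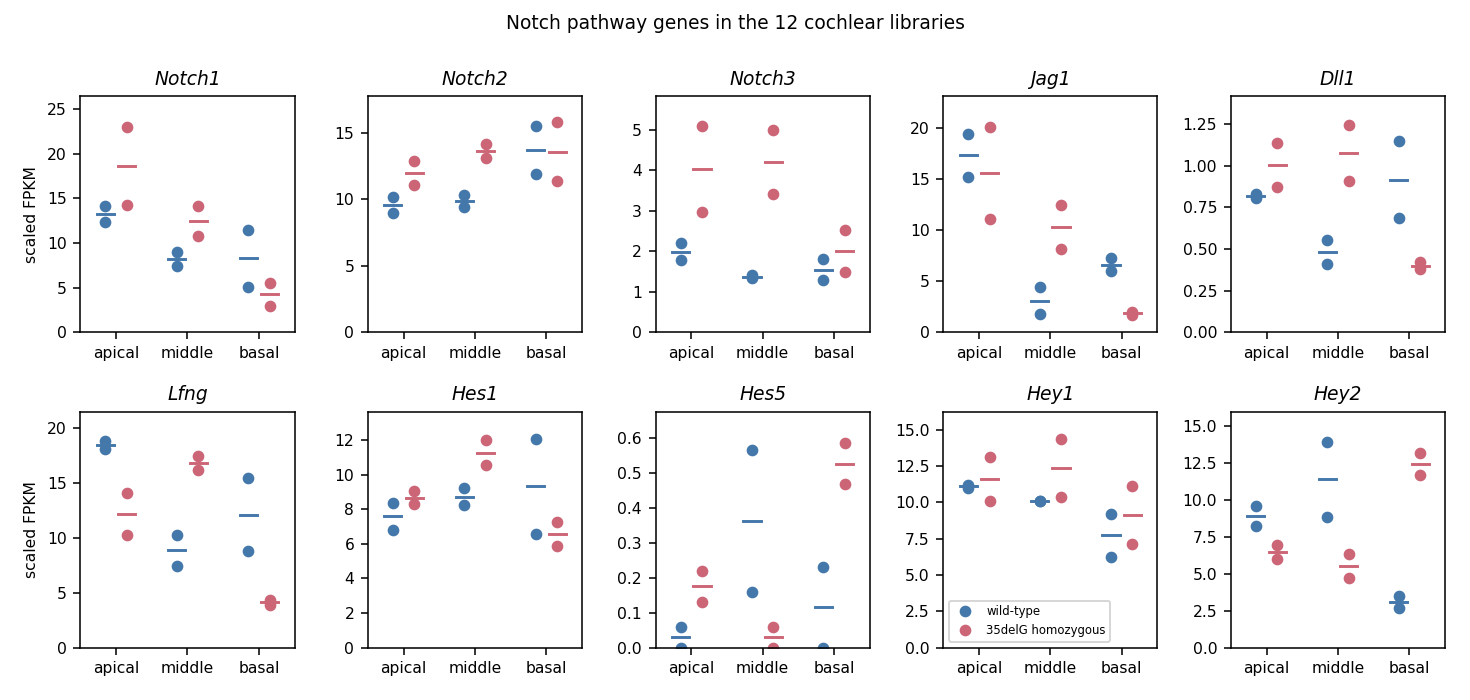
Scaled FPKM (vertical axis, from 0, with its own scale in each panel) of the 10 Notch pathway genes by cochlear turn (horizontal axis) in wild-type (blue) and 35delG homozygous (red) cochleae. Points are libraries and bars are means of 2. Hey2 is highest in the homozygous basal and wild-type middle turns, and Jag1 and Lfng are low in the homozygous basal turn.

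Hey2, a repressor downstream of Notch that also works in pillar cells of the organ of Corti, was the member whose genotype difference was called in a single turn. In the basal turn it measured 2.67 and 3.52 in the wild-type libraries and 11.7 and 13.2 in the homozygous libraries. Both homozygous values lay far above both wild-type values. The ratio of means was 4.02, and the fold change on the scale of log2(scaled FPKM + 1) was 1.72 ± 0.23 (SE, n = 2 per group, limma, Benjamini-Hochberg adjusted p = 0.00505). Here and below, such an SE pools the spread within all 6 groups and is not that of the libraries compared alone. Calls required an adjusted p below 0.01 together with a fold above 2, and 4.29% of the 16215 genes tested were called in this turn, against 1 of the 9 members. The call was lost when the fit held only the basal libraries (adjusted p = 0.149), without a filter on low values (0.0156), with library weights (0.0264) and when 1 of 7 libraries was left out, either wild-type apical, either homozygous apical, wild-type basal replicate 1 or either homozygous basal library (adjusted p between 0.0119 and 0.0229, log2 fold change between 1.56 and 1.80).

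In the middle turn Hey2 ran the other way, with 8.85 and 13.9 in wild-type libraries, compared with 4.68 and 6.31 in homozygous ones. The groups did not overlap, and the log2 fold change was -0.91 ± 0.23 (limma adjusted p = 0.0609). In the apical turn it measured 8.26 and 9.56 in wild-type libraries, compared with 6.95 and 5.99 in homozygous ones, again without overlap (log2 fold change -0.41 ± 0.23, adjusted p = 0.425). Among the groups, the order of means ran from the homozygous basal turn (12.4) over the wild-type middle (11.4) and apical (8.91), the homozygous apical (6.47) and middle (5.49) to the wild-type basal turn (3.09). The libraries of the homozygous basal and wild-type middle turns overlapped, as did those of the homozygous apical and middle turns.

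Jag1, the ligand that marks the sensory territory, was high in the apical turn of both genotypes, with 15.2 and 19.5 in wild-type libraries, compared with 20.1 and 11.1 in homozygous ones. The apical groups overlapped (log2 fold change -0.19 ± 0.36, limma adjusted p = 0.852). In the middle turn it measured 1.78 and 4.43 in wild-type libraries, compared with 8.21 and 12.5 in homozygous ones, and in the basal turn 7.29 and 5.95 in wild-type libraries, compared with 1.71 and 2.01 in homozygous ones. Homozygous libraries were thus above both wild-type libraries in the middle turn, with a ratio of means of 3.33, and below both in the basal turn, 3.56-fold. Neither difference was called (middle 1.52 ± 0.36, adjusted p = 0.0538; basal -1.41 ± 0.36, adjusted p = 0.0298). Without wild-type middle replicate 1, the library with the lowest Jag1 of its group and an oligodendrocyte and astrocyte marker sum of 1413 against 31.1 in its partner, the middle difference was 1.04 (adjusted p = 0.211).

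Dll1, the Delta-like ligand of nascent hair cells, was near the limit of the filter in all turns. It measured 0.832 and 0.807 in the wild-type apical, 0.412 and 0.552 in the wild-type middle and 0.684 and 1.15 in the wild-type basal turn. In homozygous cochleae it measured 1.14 and 0.873, 0.910 and 1.24, and 0.420 and 0.377 in the same order. Homozygous values were the higher ones in the apical and middle turns and the lower ones in the basal turn, and none of the differences was called (log2 fold changes 0.14, 0.48 and -0.44 with limma adjusted p of 0.798, 0.180 and 0.170). At such levels the added 1 FPKM makes the log2 fold change smaller than the ratio of means, which was 2.23 in the middle turn.

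Lfng, a Fringe enzyme that adds sugars to Notch receptors and changes which ligands they answer to, had the highest mean of all members. In the wild-type it measured 18.8 and 18.1 in the apical, 7.45 and 10.2 in the middle and 15.5 and 8.76 in the basal turn. In homozygous cochleae it measured 14.1 and 10.3 in the apical, 16.2 and 17.5 in the middle and 3.88 and 4.36 in the basal turn. The groups did not overlap in any turn, with homozygous libraries lower in the apical and basal turns and higher in the middle turn. The basal difference was -1.31 ± 0.26 on the log2 scale (2.94-fold lower by ratio of means, limma adjusted p = 0.0123), the apical -0.58 ± 0.26 (0.314) and the middle 0.87 ± 0.26 (0.0871). Without wild-type basal replicate 2, which carried the lower Lfng of its group and an oligodendrocyte and astrocyte marker sum of 456 against 40.1 in its partner, the basal difference became a call (-1.69, adjusted p = 0.00225), and without wild-type basal replicate 1 it was -0.94 (0.0537).

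None of the 3 receptors was called in any comparison. Notch1, the main receptor of the sensory epithelium, measured 14.2 and 12.4, 7.37 and 8.95, and 11.4 and 5.09 in the wild-type apical, middle and basal turns. In the homozygous turns it measured 23.0 and 14.3, 10.7 and 14.2, and 5.55 and 2.96. It was higher without overlap in the apical and middle turns and overlapped in the basal turn, where wild-type replicate 2 lay between the homozygous values (log2 fold changes 0.43, 0.55 and -0.77, limma adjusted p 0.627, 0.399 and 0.195).

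Notch2, a receptor of broad expression, was the steadiest of the 9 tested members. It measured 10.1 and 8.97, 10.3 and 9.41, and 11.9 and 15.5 in the wild-type and 12.8 and 11.1, 14.1 and 13.1, and 11.3 and 15.8 in the homozygous turns. Homozygous libraries were slightly higher in the apical and middle turns, without overlap (ratios of means 1.25 and 1.38), and overlapped with the wild-type in the basal turn (0.990). None was called, with limma adjusted p of 0.487, 0.202 and 0.958 for log2 fold changes of 0.30, 0.43 and -0.02.

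Notch3, the receptor best known from the mural cells of vessels, had the lowest level of the 3 receptors. Wild-type libraries held 2.20 and 1.78 in the apical, 1.40 and 1.34 in the middle and 1.29 and 1.81 in the basal turn. Homozygous libraries held 5.10 and 2.97, 3.42 and 5.01, and 2.54 and 1.49. They exceeded every wild-type library of the same turn in the apical and middle turns, where the ratios of means were 2.03 and 3.07, and overlapped in the basal turn. The middle difference was 1.12 ± 0.28 on the log2 scale (limma adjusted p = 0.0571), and the difference averaged over the 3 turns was 0.69 ± 0.16 (0.0624), neither called. Averaged over the turns, 0.376% of all genes were called and 0 of the 9 members, with 1 member, Notch3, at an unadjusted p below 0.05 (18.6% of all genes). The summed level of 12 endothelial and mural cell markers was 169 to 188 in the homozygous against 198 to 279 in the wild-type apical turn, and 223 to 225 against 186 to 200 in the middle turn, and the part of these cells in the result was not tested.

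Among the targets other than Hey2, Hes1 measured 6.82 and 8.34, 9.21 and 8.22, and 6.59 and 12.1 in the wild-type turns and 8.31 and 9.04, 10.6 and 11.99, and 5.86 and 7.27 in the homozygous turns. Hes1 was higher without overlap in the middle turn (0.34 ± 0.25, limma adjusted p = 0.428) and overlapped in the apical and basal turns. Hey1 measured 11.2 and 11.0, 10.1 and 10.1, and 6.25 and 9.20 in the wild-type and 13.1 and 10.1, 10.4 and 14.4, and 7.13 and 11.1 in the homozygous turns. Its differences were the smallest of the target genes, 0.05, 0.25 and 0.21 on the log2 scale with adjusted p of 0.952, 0.573 and 0.622, and 95% intervals of -0.52 to 0.62, -0.32 to 0.82 and -0.37 to 0.78.

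Hes5, a classical target in supporting cells of the young organ of Corti, was barely present at this age. The wild-type libraries held 0 and 0.0574 in the apical, 0.566 and 0.158 in the middle and 0 and 0.231 in the basal turn, and the homozygous libraries 0.218 and 0.132, 0.0593 and 0, and 0.467 and 0.585. It was listed at 0 in 3 of 12 libraries and its highest value, 0.585, was in the homozygous basal turn. Without the filter its limma log2 fold changes were 0.19 (adjusted p = 0.701), -0.39 (0.277) and 0.46 (0.138) in the apical, middle and basal turns.

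Counted over the 9 tested members, genotypes were apart most often in the middle turn. There, 9 of 9 did not overlap, 8 of them with both homozygous values above both wild-type values and 1, Hey2, with both below. Over all genes tested, 59.5% did not overlap in this turn and 31.3% were higher without overlap. None of the 9 was called by limma, where 0.179% of all genes were, and 5 of 9 had an unadjusted p below 0.05, against 25.4% of all genes. The median log2 fold change of the members was 0.48 against 0.04 over all genes, which became 0.17 with FPKM as deposited. The summed hair cell markers were 223 to 400 in the homozygous and 26.8 to 108 in the wild-type middle turn, the Schwann cell and myelin markers 872 to 881 against 6126 to 20347, and the part of these cells in the members' differences was not tested.

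In the basal turn 4 of 9 members did not overlap, Hey2 higher and Jag1, Dll1 and Lfng lower, against 54.0% of all genes, a share of members below that of the table. The median of the members was -0.40 and that of all genes -0.02. In the apical turn 6 of 9 did not overlap, 4 of them higher (Notch1, Notch2, Notch3 and Dll1) and 2 lower (Lfng and Hey2), near the 59.0% of all genes. None was called there by limma, with 0.179% of all genes called, and 1 of 9, Notch3, had an unadjusted p below 0.05, against 16.4% of all genes.

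**Figure D2:**
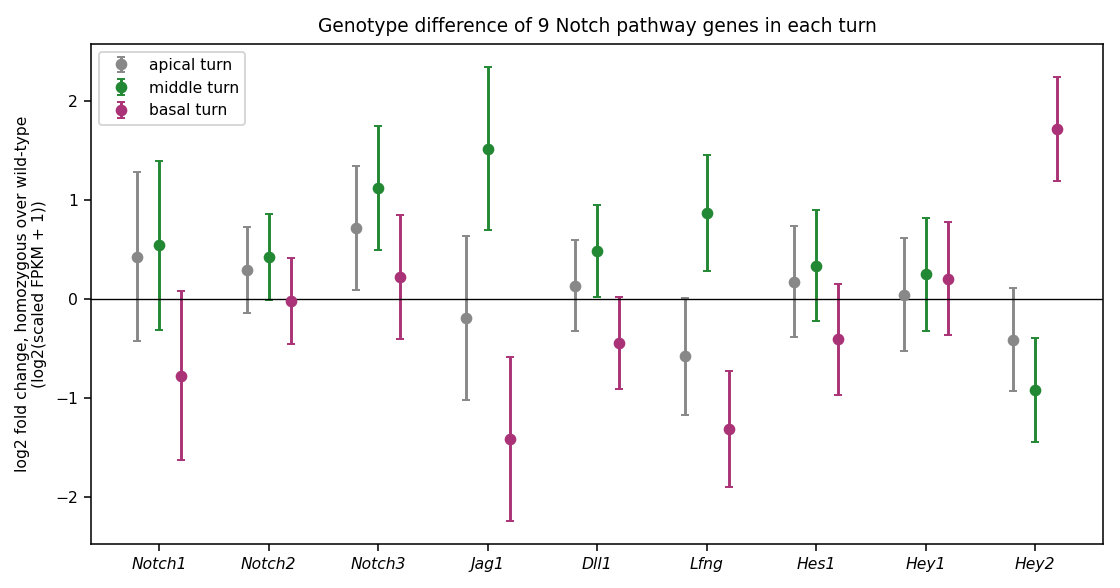
Log2 fold change of 35delG homozygous over wild-type, on log2(scaled FPKM + 1), for the 9 tested members in the apical (grey), middle (green) and basal (purple) turns. Bars are 95% intervals from limma, n = 2 per group. Jag1 and Lfng lie above 0 in the middle and below 0 in the basal turn, and Hey2 the reverse.

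The difference between turns was tested directly, as the genotype difference in the basal turn minus that in the middle turn. It was called for 3 of the 9 members, while 8.91% of all genes were called. For Hey2 it was 2.63 ± 0.33 on the log2 scale (limma adjusted p = 0.00251), for Jag1 -2.93 ± 0.51 (0.00570) and for Lfng -2.18 ± 0.37 (0.00498). Dll1 followed at -0.93 (0.0481) and was not called, and Notch1 was at -1.32 (0.106), Notch3 at -0.89 (0.130), Hes1 at -0.74 (0.154), Notch2 at -0.45 (0.255) and Hey1 at -0.04 (0.939). The median of the members was -0.89 and that of all genes -0.12.

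The Hey2 call between these turns was kept when each of the 12 libraries was left out in turn, with an adjusted p between 0.0013 and 0.0071, and was lost when the fit held only the 8 libraries compared (0.0199). The Jag1 call was lost in 8 of the 12 leave-outs, those of either wild-type apical, wild-type middle replicate 1, wild-type basal replicate 1, either homozygous middle or either homozygous basal library (log2 difference between -3.20 and -2.45, adjusted p up to 0.0196), and also with only the 8 libraries compared (0.0220), without a filter on low values (0.0210), with library weights (0.0151) and without wild-type middle replicate 1 and wild-type basal replicate 2 together (0.0146). The Lfng call was lost in 8 as well, with either wild-type apical, either wild-type middle, either homozygous middle or either homozygous basal library left out (between -2.39 and -1.97, up to 0.0204), and with only the libraries compared (0.0239) and without a filter (0.0171). Set side by side without a test, the homozygous basal libraries (11.7 and 13.2) lay within the Hey2 range of the wild-type middle libraries (8.85 and 13.9), and both had less Jag1 than any library of the wild-type basal or homozygous middle turn. Between the basal and apical turns the genotype difference was called in 0 of 9 members by limma (0.796% of all genes), with 2 of 9, Hey2 and Jag1, at an unadjusted p below 0.05 (28.4% of all genes) and Hey2 nearest to a call (2.13 ± 0.33, adjusted p = 0.0107). Between the middle and apical turns 0 of 9 members were called and 0% of all genes, with Jag1 (1.71, adjusted p = 0.569) and Lfng (1.45, 0.466) at an unadjusted p below 0.05 (8.05% of all genes).

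**Figure D3:**
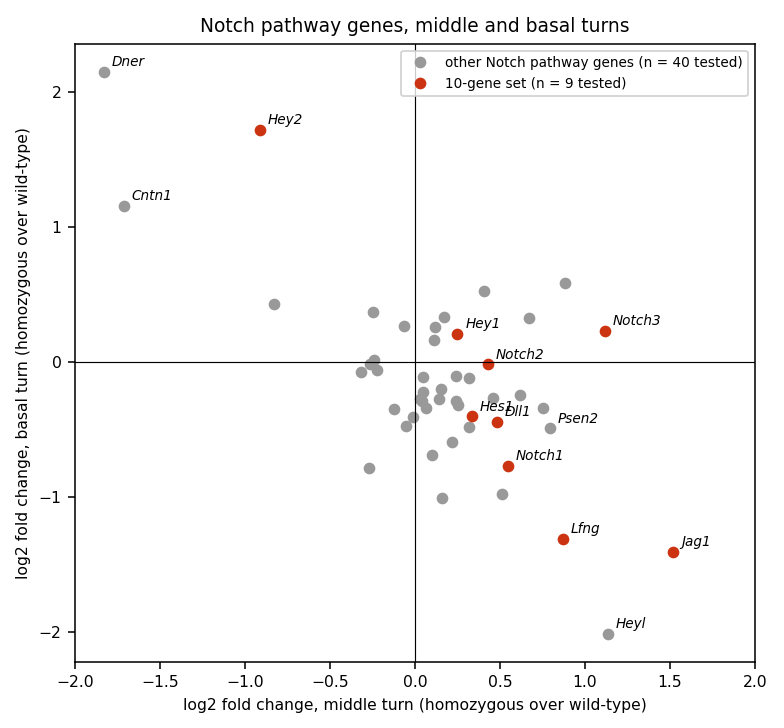
Log2 fold change of homozygous over wild-type in the middle turn (horizontal axis) and in the basal turn (vertical axis) for the 9 tested members (red) and 40 other Notch pathway genes (grey). Jag1, Lfng and Heyl lie at the lower right, higher in the middle and lower in the basal turn, and Hey2, Cntn1 and Dner at the upper left.

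Along the wild-type cochlea no member was called by limma between any pair of turns. Jag1 showed the largest difference, between 15.2 and 19.5 in the apical and 1.78 and 4.43 in the middle turn (log2 difference -2.23 ± 0.36, adjusted p = 0.0455), and was 7.29 and 5.95 in the basal turn (basal minus apical -1.26, 0.129). Hey2 was lower in the basal turn than in the apical (-1.28 ± 0.23, 0.0480) and the middle turn (-1.57 ± 0.23, 0.0752), without overlap. From apical to basal 6 of 9 members did not overlap (5 lower and 1, Notch2, higher) against 55.7% of all genes, from apical to middle 6 of 9 (all lower) against 65.4%, and from middle to basal 5 of 9 (3 higher, 2 lower) against 41.6%. The share of all genes called was 0.0863%, 0.0863% and 0%, and 4, 2 and 2 of the 9 members had an unadjusted p below 0.05, against 20.3%, 19.9% and 15.2% of all genes. The wild-type hair cell marker sum was 568 to 570 in the apical turn, and its part in these differences was not tested.

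The levels of Jag1 and Lfng ran with those of several cell type markers. Over the 12 libraries, which share 6 groups of 2, Pearson's r between log2 levels and the mean log2 level of the hair cell markers was 0.95 for Jag1 and 0.92 for Lfng. With the supporting cell markers r was 0.89 for Jag1, 0.82 for Lfng and 0.90 for Notch1, and with the oligodendrocyte and astrocyte markers -0.84, -0.86 and -0.82. For Hey2 it was -0.39 with the hair cell markers and 0.75 with the spiral ganglion neuron markers. For Notch3 it was 0.26 with the endothelial and mural cell markers, 0.51 with the supporting cell and 0.53 with the spiral ligament fibrocyte markers. With the Schwann cell and myelin markers Notch3 had an r of -0.69. In the basal turn, 4 of 11 tested hair cell markers were called lower in homozygous libraries (1.76% of all genes were) and all 11 were lower at an unadjusted p below 0.05 (16.0% of all genes). Of 10 spiral ganglion neuron markers 8 were higher at an unadjusted p below 0.05 (16.4% of all genes). The part of any of these cell types in the Jag1, Lfng and Hey2 results was not tested.

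**Figure D4:**
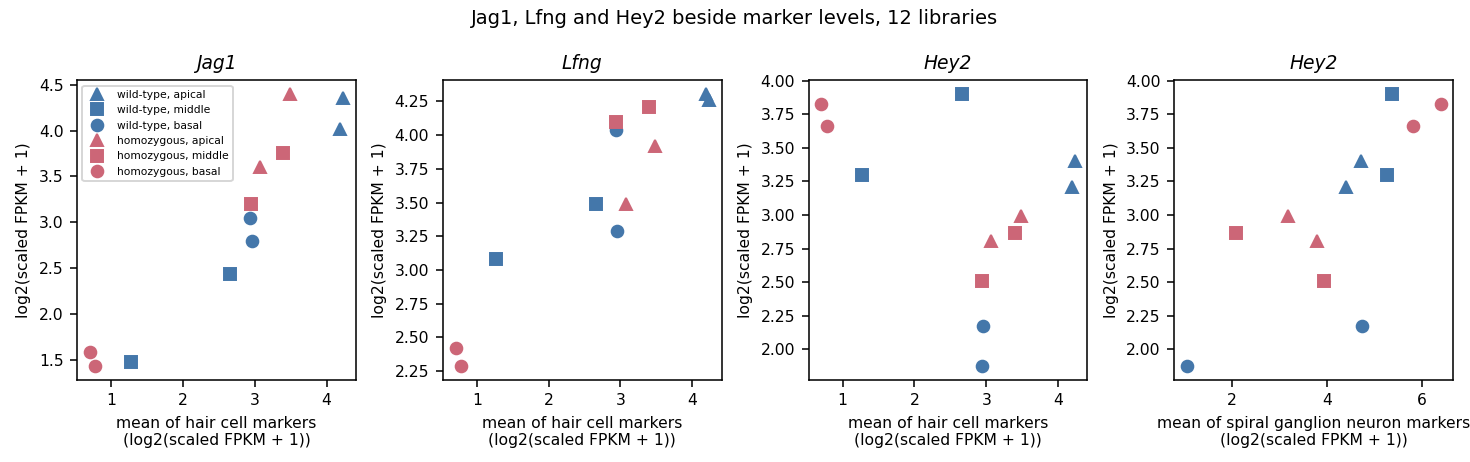
Log2(scaled FPKM + 1) of Jag1, Lfng and Hey2 (vertical axes) against the mean log2 level of 12 hair cell markers or, in the last panel, 10 spiral ganglion neuron markers (horizontal axes), in 12 libraries. Triangles, squares and circles are apical, middle and basal turns, blue wild-type and red homozygous. The 2 homozygous basal libraries have the lowest hair cell marker levels, with low Jag1 and Lfng and high Hey2.

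Among the members themselves, the log2 levels of Jag1 ran most closely with Lfng (r = 0.87), Notch1 (0.84) and Dll1 (0.80), and Notch1 with Lfng (0.80). Hey2 ran against Dll1 (-0.59) and Lfng (-0.46). Over the 9465 genes that averaged 5 scaled FPKM or more, the pattern most like that of Jag1 was Fgfr3 (r = 0.97), a receptor of pillar and Deiters' cells, followed by 4930426D05Rik (0.97) and C2 (0.96). Notch1 was most like Clu (0.97), Lama5 (0.97) and Znfx1 (0.97), and Lfng like Gm5737 (0.97), Limd2 (0.97) and Irak4 (0.97). Hey2 was most like Ephb6 (0.94), Gm12688 (0.93) and Hspa12a (0.92), Notch3 like Tgfbr2 (0.94), Als2cl (0.93) and Tfe3 (0.93), Notch2 like Stab1 (0.92) and Tmod3 (0.90), and Dll1 like Spata24 (0.93), Wif1 (0.91) and Cracr2b (0.91). The closest genes were less close for Hes1 (Mir703 0.87, Tpt1-ps3 0.86 and Pigx 0.85) and Hey1 (Srd5a3 0.82, Itga10 0.77 and Rasl11b 0.76).

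Of 46 further genes of the pathway 45 were in the table and 40 were tested. In the apical and middle turns 0 of 40 were called by limma, with 5 and 10 at an unadjusted p below 0.05 (12.5% and 25% of them, against 16.4% and 25.4% of all genes). In the basal turn 1 of 40, Heyl, was called and lower, against 4.29% of all genes called. Heyl, a target related to Hey1 and Hey2, measured 17.2 and 12.9 in wild-type samples, compared with 4.75 and 1.69 in the homozygous basal turn (-2.01, adjusted p = 0.00822), a call lost in 10 of the 12 leave-outs, all but those of wild-type basal replicate 2 and homozygous basal replicate 1 (adjusted p up to 0.0424). In the middle turn it measured 4.56 and 5.99 in wild-type libraries, compared with 10.6 and 15.3 in homozygous ones. In both turns Heyl and Hey2 lay on opposite sides of 0.

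The difference between the basal and middle turns was called for 3 of the 40 (7.5%, against 8.91% of all genes), Heyl (-3.15, limma adjusted p = 0.00384), Psen2, a catalytic subunit of the γ-secretase that cuts Notch receptors (-1.29, 0.00453), and Cntn1, a neuronal adhesion protein described as a Notch ligand (2.87, 0.00231). The Cntn1 call was kept in all 12 leave-outs, the Psen2 call was lost in 8 of them (adjusted p up to 0.0166) and the Heyl call in 3, without either wild-type middle library or homozygous middle replicate 2 (adjusted p up to 0.0160). With only the libraries compared none of the 3 was called (0.0193 to 0.0263), and without a filter Cntn1 alone was. Cntn1 measured 37.5 and 25.1 in wild-type samples, compared with 9.002 and 8.34 in the homozygous middle turn, then 14.2 and 20.5 in wild-type samples, compared with 43.9 and 35.2 in the homozygous basal turn. The median of the 40 was -0.35, against -0.89 for the members. The most abundant gene of each role, over the 12 libraries, was Dtx3 among the ubiquitin ligases (51.2), Psenen among the proteases (44.4), Snw1 in the nuclear complex (34.5), Dner among the atypical ligands (24.0), Numb among the inhibitors (16.1), Poglut1 among the glycosyltransferases (15.3), Heyl among the targets (10.2), Jag2 among the ligands (3.89) and Notch4 as the remaining receptor (2.78). None of these except Heyl was called in any comparison.

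In mm10 coordinates of the deposited table, Hey2 spans chr10:30832359-30842801 on the minus strand, Lfng chr5:140607320-140615545 on the plus strand and Jag1 chr2:137081456-137116644 on the minus strand. All 10 members are protein-coding. In the GENCODE annotation the exons of Jag1, Lfng, Hes1, Hey1 and Hey2 overlap no exon of another gene, whereas exonic bases are shared by Notch1 with 0610009E02Rik (1068 bases) and Gm13568 (414), by Notch2 with Gm42820 (541), by Notch3 with the antisense Gm17276 (488), by Dll1 with A930024N18Rik (867) and by Hes5 with Gm20421 (433). Whether reads were assigned by strand is not given in the sources used here, so that values of these 5 genes may include reads of their neighbours. The spans of Notch1, Notch2, Dll1 and Hes1 in this GENCODE annotation differ from those in the deposited table. Their overlaps may therefore differ in the annotation that gave the FPKM.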

How the data were processed

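Total RNA of apical, middle and basal cochlear pieces had been extracted with the miRNeasy Micro Kit, made into libraries with a VAHTS Universal V8 kit and sequenced as paired-end reads of 150 nt. The authors trimmed reads with fastp 0.20.0, aligned them to mm10 with STAR 2.7.3a, kept unique alignments and computed FPKM with StringTie 2.0, and the deposited FPKM table is what was used here. Counts were not analysed here, so the depth per library is unknown and no counting interval is given. Summed FPKM ranged from 316425 to 408162 per library.

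FPKM were divided by median-of-ratios factors from 11552 genes of at least 1 FPKM in every library (0.917 to 1.06). Genes of at least 1 FPKM in 2 libraries (16215 of 37432) were tested on log2(scaled FPKM + 1) with limma 3.58.1 in R 4.3.3, with 1 mean per group, a trended prior, 6 residual degrees of freedom and Benjamini-Hochberg adjustment over all genes tested. A call needed an adjusted p under 0.01 and a fold over 2. Only these cut-offs are those of the study, which used a different test. In every turn the paper reported more genes than were called here (29 apical, 29 middle and 696 basal), with its highest number in the middle turn. A member without a call here may therefore have passed the test of the study. Comparisons fitted numbered 10. The fit was also run on simulated data (15599 genes), with the same spread for a gene in every group. Only genes of higher mean level were changed, in the homozygous basal group. It called 76 of 100 genes changed 4-fold and 94 of 100 changed 16-fold, with 0 false calls. Real groups differed in spread, with a distance of 40.3 between the wild-type apical and 105 between the wild-type basal repeats. The simulation therefore does not give the error rate of the calls reported here. The members, the list of other pathway genes and the marker lists were chosen with earlier results of these data known. All members are named, and of the other pathway genes those called in any comparison and the most abundant of each role. Likeness is Pearson's r of log2 values, given as a description for the 3 genes most like each member, of which 1 is not reported here.

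Replicate numbers were examined as a possible pairing, across genotypes and across turns. The correlation of the repeats' differences between genotypes was -0.07 for apical, -0.01 for middle and 0.21 for basal libraries. Across turns of the wild-type it was -0.02 (apical and middle), 0.05 (apical and basal) and -0.29 (middle and basal). In the homozygous libraries it was -0.41, 0.27 and -0.25 in the same order. The numbers were taken as names only. Whether libraries of the same number share a cochlea is not given in the sources used here, and the fit treated the 12 libraries as independent.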

Additional observations from a re-analysis of the deposited data

Results flagged for a closer look

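Each of the following was selected because the genotype difference itself differed between the basal and the middle turn in limma's test of that difference, with adjusted p under 0.01 and more than 2-fold. Values are the genotype difference in the basal turn minus that in the middle turn, on the scale of log2(scaled FPKM + 1). Among the members these were Jag1 (-2.93), Lfng (-2.18) and Hey2 (2.63), and among the other pathway genes Heyl (-3.15), Psen2 (-1.29) and Cntn1 (2.87). Homozygous Jag1, Lfng, Heyl and Psen2 values were above both wild-type values in the middle turn and below both in the basal turn, and Hey2 and Cntn1 values the reverse. Groups of 2 libraries are too small for a test of single outlying samples, and none was run.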

How the results depend on the processing

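The direction of 49 single-gene results was followed over 9 settings besides leave-outs. Of 441 values 408 kept direction and side of the threshold, 22 lost the call, 9 gained one and 2 reversed, and of 588 leave-out values 532 kept both, 44 lost the call, 2 gained one and 10 reversed. The reversals were all of small differences. Leave-outs of 1 library moved Jag1 in the apical turn between -0.59 and 0.21 (above 0 without homozygous apical replicate 2) and Hey1 there between -0.13 and 0.22 (below 0 without homozygous apical replicate 1). In the basal turn Notch2 ran from -0.23 to 0.20 (0.16 without wild-type replicate 2), Notch3 from -0.024 to 0.49 and Hey1 from -0.070 to 0.50 (-0.05 without wild-type replicate 1). The basal minus middle difference of Hey1 ran from -0.31 to 0.25, with 0.20 without wild-type basal replicate 2 and 0.17 without homozygous middle replicate 2. The cause was not tested.

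Counts of genes called over the whole table moved far more, and are given in the order apical, middle, basal, mean of turns, then basal minus middle, basal minus apical and middle minus apical difference, then wild-type basal minus apical, basal minus middle and middle minus apical, where the counts of the fit reported were 29, 29, 696, 61, 1445, 129, 0, 14, 0 and 14. For the counts of 0 there were 1306 and 2472 genes at an unadjusted p under 0.05. With a pseudocount of 0.1, 13 apical and 19 middle calls were made and both wild-type counts of 14 became 0 (3302 and 3100 at an unadjusted p under 0.05). Without a filter the counts were 17, 15, 89, 26, 296 and 13, and 9 for wild-type basal minus apical. With only the libraries compared they were 93 (apical), 0 (middle, basal, both basal differences and wild-type basal minus apical, with 3930, 3234, 5101, 4351 and 2854 at an unadjusted p under 0.05), 1 (middle minus apical difference) and 1 (wild-type middle minus apical). Library weights gave 258, 63 and 22 in the 3 turns, 84 for basal minus apical, and 1 and 111 for wild-type basal and middle minus apical. Quantile normalization gave 361 for basal minus apical. With FPKM as deposited, 14 of 23 middle calls were higher, against 13 of 29. At an adjusted p under 0.05 the counts were 136, 475, 1954, 162, 3214, 1810, 0, 159, 1 and 77.

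With the replicate number as a block the counts were 12, 12, 177, 34, 967, 0 (4538 at an unadjusted p under 0.05), 0 (1360), 4, 0 (2427) and 5. Whether the numbers pair these samples is not known. The Jag1 basal minus middle call was lost under the block (adjusted p = 0.0104), and the Heyl basal call (0.0152). No other call of a named gene was lost.

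An alternative chosen after seeing the data left out wild-type middle replicate 1 and wild-type basal replicate 2 together, the wild-type libraries with the highest oligodendrocyte and astrocyte marker sums. It gave 12 middle, 1766 basal, 311 mean, 960 basal minus apical and 1 middle minus apical calls, and 1, 1 and 2 in the wild-type comparisons. Notch2 in the basal turn (0.16) and Hey1 for basal minus middle (0.21) reversed.

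Leaving out 1 library, the lone sample of its group being assumed to vary like the others, gave 4 to 52, 5 to 50, 40 to 1840, 13 to 301, 280 to 2275, 0 to 1103, 0 to 1, 0 to 26, 0 to 14 and 0 to 24 calls. The highest basal and basal minus middle counts came without wild-type basal replicate 2, and the lowest without wild-type apical replicate 2 and wild-type middle replicate 1. No receptor difference was called with 2 libraries per group, and the depth per library is unknown. Some 95% intervals of receptors still lay apart from 0. For Notch3 these were the middle turn (0.49 to 1.74), the apical turn (0.098 to 1.35) and the mean of turns (0.33 to 1.05). For basal minus middle they were those of Notch1 (-2.53 to -0.11) and Notch3 (-1.77 to -0.0068). For wild-type basal minus apical it was that of Notch2 (0.035 to 0.90).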
